A study of Mus musculus with 28 samples.

Results

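Mice fed a high fat diet with added polyphenols were compared, as 1 supplemented condition, with mice fed the high fat diet alone. The supplemented condition is the mean of 3 diet groups, each weighted equally, so 23 of the 28 arrays of the series entered the comparison: 17 supplemented and 6 from the high fat diet group (HFD). The HQ group (5 livers) received the high fat diet with 0.4% quercetin, the HR group (6 livers) the same diet with 0.4% resveratrol, and the HQR group (6 livers) the diet with 0.2% of each compound. All mice were male C57/6J, were 7 weeks old at the start, and were killed at 33 weeks of age after 26 weeks on the diets. The 5 remaining arrays, from mice on the standard diet, were used for the spread between livers and as a reference level, and are called the standard-diet group. Each array held RNA of 1 liver, so the error is that between mice of a single cohort.

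Quercetin is a plant flavonol and resveratrol a stilbene. Both are taken up from the gut and conjugated by sulfotransferases and glucuronosyltransferases of the gut and liver, and both have been studied as ligands or activators in the aryl hydrocarbon receptor, NRF2 and sirtuin pathways. A long high fat diet loads hepatocytes with triglyceride and raises genes of lipid droplets and of PPARgamma, the lipid-storage nuclear receptor. Some liver P450 enzymes, among them those of the Cyp2b family, answer to the nuclear receptor CAR and differ between the sexes in mouse liver.

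Array signal overlapped between the conditions. The scanner software called between 59.4% and 82.1% of probes well above background, the call for a spot brighter than its local surroundings. The share was 71.6% ± 6.22 (SD, n = 6) in HFD and 69.1% ± 5.78 (SD, n = 17) in the supplemented livers, a difference of -2.496 percentage points (exact two-sided permutation test over arrays, p = 0.381). The 75th percentile of the processed signal, to which each array was scaled, was 415 ± 88.9 (SD, n = 6) in HFD and 350 ± 122 (SD, n = 17) in the supplemented livers (exact permutation test, p = 0.241). The hepatocyte markers Alb, Ttr, Apoa1 and Hnf4a were well above background on 28 of 28 arrays. The 6 HFD arrays lay on 6 slides, 1 on each, together with 11 supplemented arrays, and the other 6 supplemented arrays lay on slides 2, 4 and 5, which held no HFD array.

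A single gene, Hao2, passed the test in the comparison of the supplemented mean with HFD, and it was lower in the supplemented livers. Its probe met the filter of at least 5 arrays well above background only through HFD (6 HFD, 1 supplemented and 0 standard-diet arrays). Without a filter on dim probes, Hao2 was again the 1 gene called, of 27729 tested. Of 21862 genes tested with limma, 1 fell (0.00457%) and 0 rose (0%) at a Benjamini-Hochberg adjusted p under 0.05. At an unadjusted p under 0.05, 482 genes (2.2%) lay below 0 and 265 (1.21%) above it, together 747 genes, where 5% of the genes tested would be 1093. That number depended on single HFD arrays: it was 288 without HFD 3, 445 without HFD 4 and 1287 without HFD 5. The median standard error of a gene's difference was 0.22 on the log2 scale, and its 95% interval reached, at the median, 0.46 to either side. The genes of next smallest p were the kinase gene Aatk, a Cyp2b10 transcript and Cyp2b13 of the P450 genes, the proteoglycan gene Gpc1, Olfr701, Mpped2, Rnf170 and Cyp2b9, all lower in the supplemented livers, followed by the metalloprotease gene Adamts15, which was higher.

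**Figure D1:**
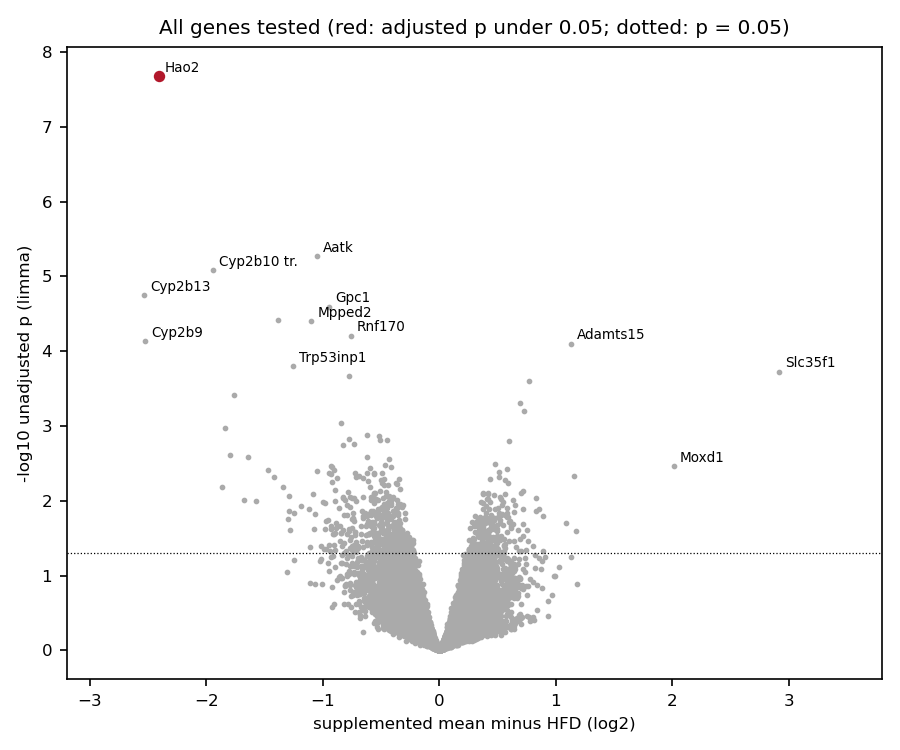
Difference of every gene tested between the supplemented mean and HFD (horizontal axis, log2 scale) against the unadjusted p of the limma test (vertical axis, -log10). Hao2, at -2.41, is the 1 gene past an adjusted p of 0.05, and the named genes nearest to it lie mostly below 0.

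Hao2 encodes a peroxisomal 2-hydroxy acid oxidase. The array design lists it as Hao3, and its probe covers chromosome 3 from 98678664 to 98678723 on the minus strand (build mm9). The level of a gene is given here as log2 of the processed signal minus the 75th percentile of its array. In HFD the levels were -4.03 at the lowest, -3.00 at the median and -2.37 at the highest (mean -3.06 ± 0.61 SD, n = 6), and the probe was well above background on 6 of 6 arrays. The 5 HQ livers had levels of -4.28, -5.65, -6.05, -4.51 and -6.19. In HR the lowest, median and highest levels were -6.48, -5.69 and -5.11, and in HQR they were -5.85, -5.53 and -3.50. Of the 17 supplemented livers, 16 lay below the lowest HFD liver, and the remaining one, HQR 4 at -3.50, lay within the HFD range. The probe was well above background on 0 of 5 HQ arrays, 0 of 6 HR arrays and 1 of 6 HQR arrays, the one of HQR 4. The standard-diet livers were at -6.19 ± 0.18 (SD, n = 5), with 0 of 5 well above background.

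The supplemented mean of Hao2 was lower than HFD by a log2 difference of -2.41 ± 0.31 (SE; 95% interval -3.04 to -1.78; limma, Benjamini-Hochberg adjusted p = 0.00045). The probe was not well above background in any HQ or HR liver, so the folds are taken against signals near background. The HFD mean was 4.84-fold above HQ, 6.72-fold above HR and 5.24-fold above the supplemented mean. These folds set each dim array at the higher of its own signal and the lowest signal called well above background on it. That left the HQ and HR means unchanged, at -5.34 and -5.81, so their folds are the fitted values. The folds carry no error between livers, unlike the 95% interval above. The component differences from HFD, which all use the same 6 HFD arrays, were -2.28 in HQ, -2.75 in HR and -2.20 in HQR. Within the 6 slides that held an HFD array, the difference was below 0 on 6 of 6 and ran from -3.49 to -1.71. These are arrays of the test itself, so the signs are no separate support. With slide as a block the difference was -2.35 (limma, adjusted p = 0.00070). Under normexp background correction with an offset of 50 added to every signal, the difference of Hao2 was -0.14 and the call was lost (limma, adjusted p = 0.763). Hao1, which encodes the liver glycolate oxidase of the same family, differed by -0.09 ± 0.30 (SE; limma, adjusted p = 0.997).

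The 250 bases before the RefSeq start of Hao2 and of the Cyp2b genes are shown because these genes were lower together, with Cyp2b13 at the lowest difference of all genes tested, and because the windows of Cyp2b9 and Cyp2b13 are near-identical. The windows are those of build GRCm38.p6 at chr3:98893231-98893480 (minus strand) for Hao2, and at chr7:26173159-26173408, chr7:26061245-26061494 and chr7:25897408-25897657 (plus strand) for Cyp2b9, Cyp2b13 and Cyp2b10. They are written 5′ to 3′ on the strand of the gene, and capitals mark a match to AGGTCA, a core sequence that nuclear receptors bind.
Hao2: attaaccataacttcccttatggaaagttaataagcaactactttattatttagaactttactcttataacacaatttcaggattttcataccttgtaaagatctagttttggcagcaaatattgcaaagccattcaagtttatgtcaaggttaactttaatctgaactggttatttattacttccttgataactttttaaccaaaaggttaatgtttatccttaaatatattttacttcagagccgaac
Cyp2b9: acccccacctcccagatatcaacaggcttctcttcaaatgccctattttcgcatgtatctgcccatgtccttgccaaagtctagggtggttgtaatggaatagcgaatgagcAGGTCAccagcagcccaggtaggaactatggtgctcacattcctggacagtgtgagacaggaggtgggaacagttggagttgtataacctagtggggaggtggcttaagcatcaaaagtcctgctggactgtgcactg
Cyp2b13: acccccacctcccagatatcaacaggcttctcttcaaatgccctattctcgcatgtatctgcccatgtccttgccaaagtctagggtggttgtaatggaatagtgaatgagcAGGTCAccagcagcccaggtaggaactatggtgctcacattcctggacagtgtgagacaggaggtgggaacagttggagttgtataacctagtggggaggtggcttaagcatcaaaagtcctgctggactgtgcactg
Cyp2b10: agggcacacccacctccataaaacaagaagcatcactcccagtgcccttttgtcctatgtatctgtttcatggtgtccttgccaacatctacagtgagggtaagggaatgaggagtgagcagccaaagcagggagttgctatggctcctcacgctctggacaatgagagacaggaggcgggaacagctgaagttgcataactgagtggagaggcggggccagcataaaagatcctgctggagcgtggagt
The windows of Cyp2b9 and Cyp2b13 were identical at 248 of 250 bases (99.2%), whereas each shared 71.4% of aligned positions with Cyp2b10, and Hao2 shared between 46.0% and 47.6% with the Cyp2b windows. AGGTCA, searched on both strands, began 138 bases before the start in Cyp2b9 and Cyp2b13 and was not found in the other windows. Among 32851 RefSeq windows of the same length, 14% held it. TTCNNNGAA, the pattern that STAT factors bind, occurred in 7.02% of all windows, and ATTGAT, a pattern of HNF6, in 6.72%. Neither was found in these 4 windows. A match describes the letters and does not show binding. The GC content was 28.4% in Hao2 and 50.8%, 50.8% and 52.8% in Cyp2b9, Cyp2b13 and Cyp2b10.

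The Cyp2b genes encode P450 enzymes that oxidise drugs, steroids and fatty acids, and Cyp2b10 among them is a classic target of the receptor CAR. Cyp2b13 was the only gene of those tested at which all 17 supplemented livers lay below all 6 HFD livers (1 gene, 0.00457%), and at 0 genes (0%) did all of them lie above. Its levels in HFD were 1.22 at the lowest, 1.51 at the median and 2.32 at the highest. The 5 HQ livers had 0.97, 0.68, 0.35, -0.04 and -2.02. In HR the lowest, median and highest levels were -4.05, -0.84 and 0.61, and in HQR -2.66, -1.81 and -0.35. The groups did not overlap, but the supplemented livers spread over about 5 log2 units and the HFD livers over about 1. The standard-diet level was -3.205 ± 1.01 (SD, n = 5). The supplemented mean differed from HFD by -2.54 ± 0.48 (SE; limma, Benjamini-Hochberg adjusted p = 0.0964), which did not pass.

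Cyp2b9 had levels in HFD of 3.28, 3.71 and 4.15 (lowest, median, highest). The 5 HQ livers had 3.45, 3.30, 2.23, 2.17 and -0.07, so that the highest pair of them lay inside the HFD range. HR livers ran from -2.17 to 2.70 and HQR livers from -0.66 to 1.75, below every HFD liver. The standard-diet level of Cyp2b9 was -2.26 ± 1.34 (SD, n = 5). The supplemented mean differed from HFD by -2.52 ± 0.54 (SE; limma, adjusted p = 0.173). The probe listed under a transcript identifier only, ENSMUST00000005477, is described as Cyp2b10 in the array design and differed by -1.95 ± 0.35 (SE; limma, adjusted p = 0.0598), with 16 of 17 supplemented livers below the lowest HFD liver. The probe named Cyp2b10 was dimmer and differed by -1.76 ± 0.43 (SE; limma, adjusted p = 0.556). It was well above background on 6 of 6 HFD, 2 of 17 supplemented and 1 of 5 standard-diet arrays. It, too, met the filter only through HFD. With dim arrays set as for Hao2, the HFD mean was 3.26-fold above the supplemented mean.

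The probes of this family are 60 bases long and are shown by their middle 30 bases (positions 16 to 45, counted from 1 at the first base in the array file), since RNA of 1 paralog may bind the probe of another.
Hao2, A_51_P114722: agaaatattatgatctattgcctaatgtcc
Cyp2b13, A_51_P492339: ttgtcttggtgaaagcattgcccgcaacga
Cyp2b13, A_52_P289091: tagactgtatgttgctgctcacatctttcc
Cyp2b9, A_51_P467076: atgtctacagacttgcctagtatgtatggc
Cyp2b9, A_52_P256914: aaaacagcaggaactcctcgactacattgc
Cyp2b10, A_52_P472486: tcttatacctattggagtgccacacagagt
ENSMUST00000005477, A_51_P182362: tctgcccttctcaacaggacaaatttttga
The array files list RefSeq transcripts of 4 genes for the first Cyp2b13 probe (Cyp2b9, Cyp2b10, Cyp2b13 and Cyp2b23) and of 2 genes for the first Cyp2b9 probe (Cyp2b9 and Cyp2b10). Each of the other probes named for a Cyp2b gene lists 1 gene. The second Cyp2b13 probe differed by -2.57 and the second Cyp2b9 probe by -2.06, against -2.54 and -2.52 for the first ones. The levels of Cyp2b9, Cyp2b13 and Cyp2b10 are therefore uncertain as values of single genes, since cross-hybridisation between them was not tested. Cyp2b19, another gene of the family with a probe well above background on 6 of 6 HFD and 17 of 17 supplemented arrays, was named after its value was seen and differed by -0.06 ± 0.35 (SE).

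**Figure D2:**
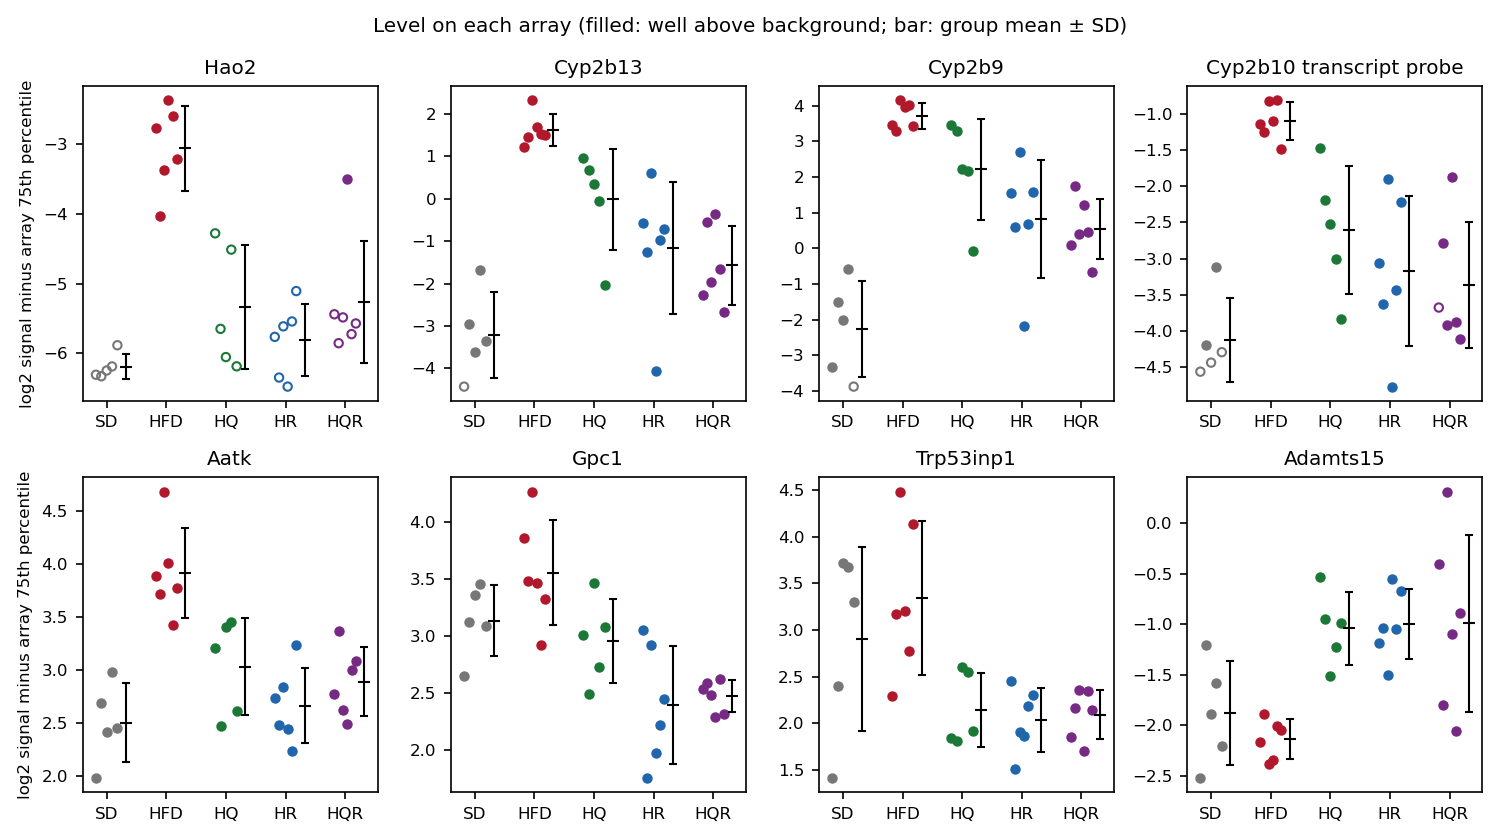
Level of Hao2 and other named genes of small p on each array (vertical axis, log2 signal minus the 75th percentile of the array), by diet group, with bars at the group mean ± SD. On the horizontal axis SD is the standard-diet group, open points are not well above background, and the Cyp2b10 transcript probe is ENSMUST00000005477. All 17 supplemented arrays of Cyp2b13 lie below the 6 HFD arrays, and 16 of 17 do so for Hao2.

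The other genes of small p were lower in the supplemented livers by about 1 log2 unit and did not pass. Aatk, which encodes the apoptosis-associated tyrosine kinase, had levels of 3.42, 3.83 and 4.68 in HFD (lowest, median, highest) and of 2.24, 2.78 and 3.45 over the 17 supplemented livers. The highest supplemented liver reached just into the HFD range and the other 16 lay below it. The difference was -1.05 ± 0.18 (SE; limma, adjusted p = 0.0590). Gpc1, a glypican that carries heparan sulfate on the cell surface, had levels of 2.92, 3.47 and 4.26 in HFD and 1.75, 2.54 and 3.46 in the supplemented livers, of which 13 lay below every HFD liver. Its difference was -0.95 ± 0.19 (SE; limma, adjusted p = 0.111).

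Trp53inp1, a p53-induced gene with a role in autophagy, ran from 2.29 to 4.48 in HFD and from 1.51 to 2.60 in the supplemented livers. Its difference was -1.25 ± 0.28 (SE; limma, adjusted p = 0.314), and the 3 components were close to each other at -1.20 in HQ, -1.31 in HR and -1.25 in HQR. Rnf170, a ubiquitin ligase of the endoplasmic reticulum, likewise had components of -0.75, -0.71 and -0.83 and a difference of -0.76 ± 0.16 (SE; limma, adjusted p = 0.169). Mpped2, a metallophosphoesterase gene, differed by -1.10 ± 0.22 (SE) and the olfactory receptor gene Olfr701 by -1.39 ± 0.28 (SE), both with an adjusted p of 0.124 in limma. Under normexp these 2 differences were -0.40 and -0.35. The Olfr701 components were less alike, at -0.61 in HQ, -1.98 in HR and -1.56 in HQR.

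Among genes higher in the supplemented livers, none passed. Adamts15, a secreted metalloprotease that cuts proteoglycans, had levels of -2.39, -2.10 and -1.88 in HFD (lowest, median, highest) and of -2.06, -1.04 and 0.31 in the supplemented livers. Here 16 of 17 supplemented livers lay above every HFD liver. The difference was 1.13 ± 0.24 (SE; limma, adjusted p = 0.173), with components of 1.09, 1.14 and 1.15 in HQ, HR and HQR. Slc35f1, a solute carrier gene, was well above background on 0 of 6 HFD arrays and on 11 of 17 supplemented arrays. Of those 11, 1 was HQ, 5 were HR and 5 HQR. Slc35f1 met the filter only through the supplemented arrays. With the HFD arrays set as for Hao2, its supplemented mean was 6.51-fold higher (limma, adjusted p = 0.341 for the fitted difference). The means were -6.60 in HFD and -3.68 in the supplemented livers, where dim arrays kept their own signal. Over the alternatives its log2 difference ran from 0.99 to 3.67.

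The remaining genes of smallest p above 0 differed by less than 1 log2 unit, apart from Moxd1. The protein kinase gene Hunk differed by 0.77 ± 0.18 (SE; limma, adjusted p = 0.394), Sel1l3 by 0.69 ± 0.17 (SE; adjusted p = 0.664) and Tmx4, a thioredoxin-like membrane protein of the endoplasmic reticulum, by 0.72 ± 0.19 (SE; adjusted p = 0.821). All 17 supplemented livers lay above the HFD mean for Hunk and Tmx4, and 16 did for Sel1l3. Trpm4, a calcium-activated cation channel, Alox12, which makes 12-hydroperoxy acids from arachidonate, the phosphatase subunit gene Ppp1r16b and Prr5l, a partner of mTORC2, differed by 0.59, 0.48, 0.58 and 0.51. Other probes of Tmx4 differed by 0.12 and 0.45, and those of Ppp1r16b by -0.01 and 0.64. Moxd1, a copper monooxygenase gene, was well above background on 1 of 6 HFD arrays and on 13 of 17 supplemented arrays, so its differences are taken against signals near background. It differed by 2.01 ± 0.63 (SE), and by 0.86 under normexp. Its components were 3.59 in HQ, 0.93 in HR and 1.51 in HQR, and its standard-diet level was -0.14 ± 2.73 (SD, n = 5), a wide spread between livers. The adjusted p of these last 5 genes was 0.997.

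**Figure D3:**
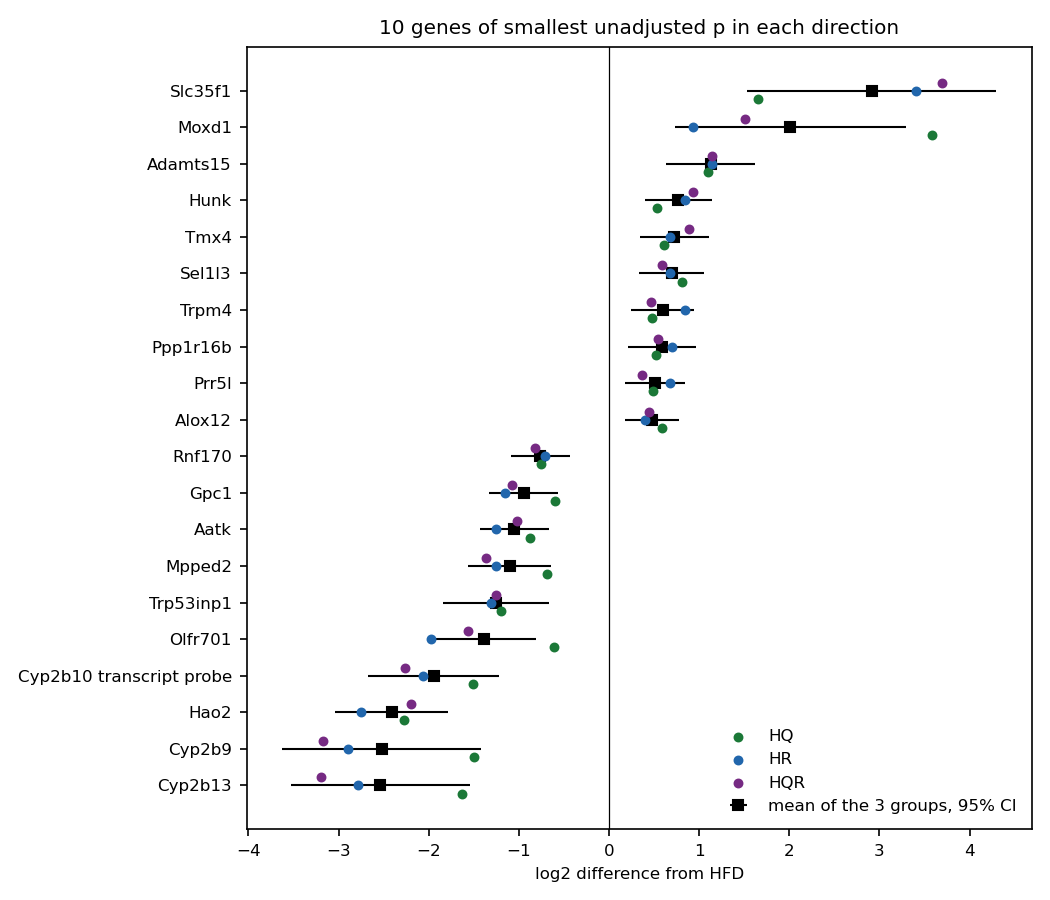
Difference from HFD of the named genes for the supplemented mean (with its 95% interval) and for HQ, HR and HQR, on the log2 scale. The 3 components of a gene share the 6 HFD arrays. Adamts15, Rnf170 and Trp53inp1 have components close together, and Moxd1 has components from 0.93 to 3.59. The Cyp2b10 transcript probe is ENSMUST00000005477.

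Arrays of the same slide resembled each other. With slide as a random block, the correlation between arrays of a slide was 0.362, and 9 genes fell (0.0412%) and 1 rose (0.00457%). These were Hao2, Aatk, ENSMUST00000005477, Cyp2b13, Cyp2b9, Gpc1, Mpped2, Rnf170 and Trp53inp1, which were lower, and Adamts15, which was higher. In that fit the adjusted p of Cyp2b13 was 0.0128, that of Cyp2b9 0.0162, that of Aatk 0.0118 and that of Adamts15 0.0139 (limma). With slide as a fixed block 1 gene fell (0.00457%), again Hao2, while 876 genes (4.01%) lay below 0 and 724 (3.31%) above it at an unadjusted p under 0.05. The adjusted p of Cyp2b13, Cyp2b9 and Aatk was 0.0815 there. Each of the 9 lower genes was below 0 on 6 of 6 slides that held both conditions, and Adamts15 was above 0 on 6 of 6. These genes were picked by a fit to the same arrays, so their signs within slides are no separate support. The share of all genes with 6 of 6 slides on 1 side is not given here.

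**Figure D4:**
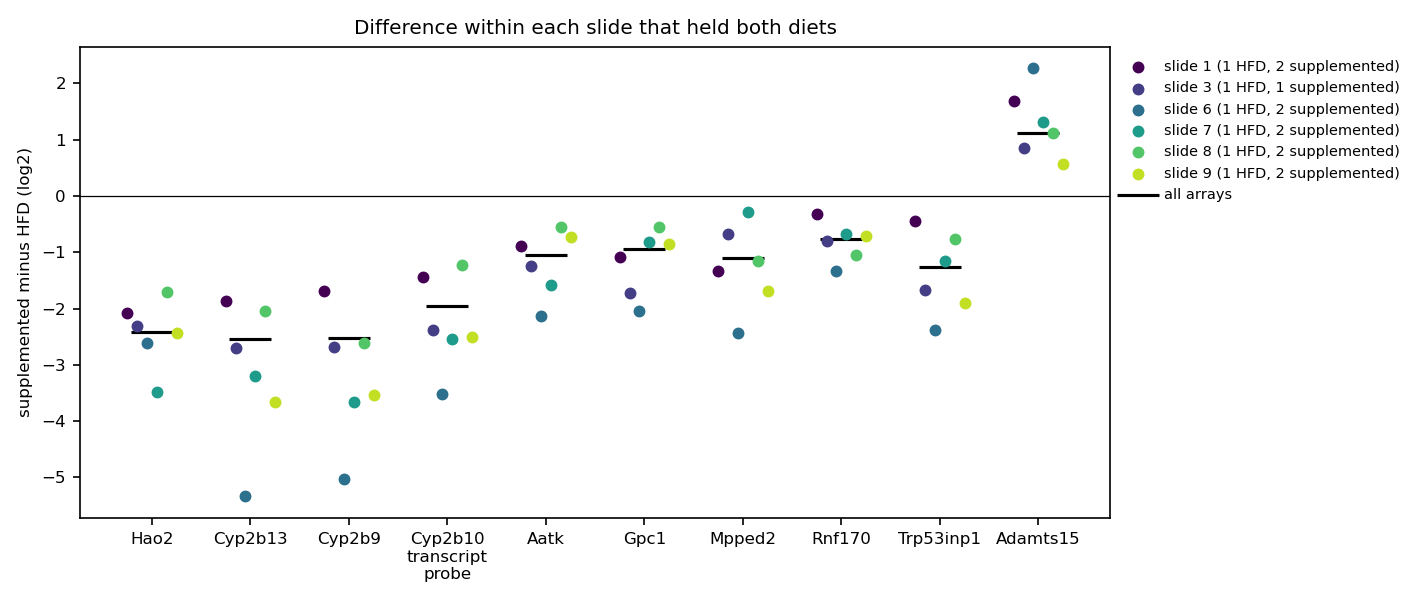
Difference between the supplemented arrays and the HFD array of the same slide (vertical axis, log2 scale), for the 6 slides that hold both. Hao2 lies between -3.49 and -1.71 and Cyp2b13 between -5.33 and -1.87.

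Gene lists were described by the number of their members above and below 0 and by the median difference, beside 21862 genes of which 11816 (54.0%) lay above 0 with a median of 0.02. Of the 38 lists, 1 held a gene that passed, the female-biased list with Hao2, whose probe met the filter only through HFD. The 25 pathway lists and 13 cell type lists were otherwise read against the 2.2% of all genes below 0 and the 1.21% above it at an unadjusted p under 0.05, and the medians given a sign here kept it in all 45 alternatives run, unless stated. Apart from Hao2 and the Cyp2b genes, every gene named from a list below had a Benjamini-Hochberg adjusted p of 0.997 in limma.

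The CAR and PXR list, the receptors and P450 genes of drug metabolism, had 20 of 22 tested members below 0 and a median of -0.34. Of these, 5 had an unadjusted p under 0.05, all below 0, 3 of them the Cyp2b genes above, and 0 passed. The female-biased list also holds those 3 genes and had 13 of 20 members below 0, with a median of -0.29, 1 fallen and 5 at an unadjusted p under 0.05. The male-biased list had 10 members above 0 and 11 below, and its median of -0.03 changed sign in 20 of the 45 alternatives.

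Conjugating enzymes of polyphenols were below 0 at 14 of 22 tested members, with a median of -0.08 and 2 members at an unadjusted p under 0.05. Those were the sulfotransferase genes Sult1d1, at -0.98 ± 0.36 (SE), and Sult1a1, at -0.62 ± 0.28 (SE). The aryl hydrocarbon receptor list had 8 of 11 members below 0 and a median of -0.17. The receptor gene Ahr differed by -0.62 ± 0.24 (SE), and its P450 targets Cyp1a1 and Cyp1a2 by -0.59 ± 0.35 and -0.35 ± 0.32 (SE). Of the NRF2 and antioxidant list, 24 of 36 members lay below 0 with a median of -0.14, and 4 had an unadjusted p under 0.05, all below 0. Among them were Gsta3, a glutathione transferase, at -0.36, and Taldo1, of the pentose phosphate pathway, at -0.34. The classical targets Nqo1 and Hmox1 differed by -0.38 ± 0.33 and 0.47 ± 0.29 (SE). The list of sirtuins, AMPK and PGC-1 had 18 of 26 members above 0 and a median of 0.07, with Sirt1 at 0.24 ± 0.21 (SE), Ppargc1a at 0.15 ± 0.23 (SE) and the mitochondrial desuccinylase gene Sirt5 at -0.35 ± 0.15 (SE). That median changed sign in 1 alternative. Second probes of Sirt1 and Ppargc1a, also well above background on every array, differed by -0.14 and -0.24.

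Among lipid genes, the lipid droplet and PPARgamma list had 15 of 22 members below 0 and a median of -0.09, with 4 members below 0 and 1 above at an unadjusted p under 0.05. Cidea, whose protein enlarges lipid droplets, had levels of 3.62, 4.65 and 6.69 in HFD (lowest, median, highest), and over the 17 supplemented livers -0.66, 2.67 and 6.21. The ranges overlapped, with 12 of 17 supplemented livers below every HFD liver, and the standard-diet level was -1.06 ± 1.52 (SD, n = 5). Cidea differed by -1.86 ± 0.63 (SE), with components of -0.79 in HQ, -2.22 in HR and -2.57 in HQR. The related gene Cidec differed by -0.60 ± 0.46 (SE). Pparg differed by -0.35 ± 0.15 (SE), Cd36, a fatty acid transporter, by -0.61 ± 0.42 (SE) and Vldlr, a lipoprotein receptor, by -0.69 ± 0.22 (SE), whereas Lpl, lipoprotein lipase, differed by 0.70 ± 0.24 (SE). A second Cd36 probe differed by -0.06. Cfd, the adipocyte-secreted factor adipsin, was at 5.499 to 6.37 in HFD and at 2.60 to 6.25 in the supplemented livers, with 15 of 17 below every HFD liver and a difference of -1.34 ± 0.45 (SE). The summed level of the 7 tested adipocyte markers, which include Cfd, overlapped between HFD (966 to 1659 times the 75th percentile) and HQ, HR and HQR (892 to 1665, 599 to 1395 and 1046 to 2152). Cfd, at a log2 mean of 5.83 in HFD, and Adipoq, at -3.85, are a small part of this sum, so it says little about either.

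Of the lipogenesis list 10 of 23 members lay above 0 and 13 below, and its median of -0.05 changed sign in 3 alternatives. Dgat2, which makes triglyceride from diacylglycerol, differed by -0.52 ± 0.15 (SE). Srebf1, Scd1 and Fasn, the regulator and 2 enzymes of fatty acid synthesis, differed by -0.61 ± 0.46, -0.77 ± 0.43 and -0.44 ± 0.49 (SE), so that each interval held 0. The PPARalpha and fatty acid oxidation list had 16 of 26 members above 0 with a median of 0.06 that changed sign in 5 alternatives, and Ppara itself differed by -0.35 ± 0.19 (SE). The hepatokine gene Fgf21 differed by -0.55 ± 0.65 (SE), with -0.32 in HQ, 0.46 in HR and -1.81 in HQR. A second, dimmer Fgf21 probe differed by -0.13. Bile acid genes had 16 of 22 members below 0 with 0 at an unadjusted p under 0.05. Cyp7a1, which catalyses the limiting step of the classical bile acid pathway, differed by -0.23 ± 0.47 (SE). A second, dimmer Cyp7a1 probe differed by 0.008. Cholesterol genes were split 12 to 12, and the median of 0.01 changed sign in 13 alternatives. By group the list median was -0.18 in HQ, -0.15 in HR and 0.32 in HQR. The median of these genes lay above 0 on 6 of 6 HQR arrays, 2 of 5 HQ and 2 of 6 HR. A difference between groups was not tested for the list. Cyp51, a lanosterol demethylase, differed by 0.64 ± 0.32 (SE), and its other, dimmer probes by -0.19 and 0.53. 

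Lists of nitrogen metabolism, respiration, ribosomal proteins and glucose handling had most of their members below 0. All 20 members of the urea cycle and glutamine list were below 0, with a median of -0.25, 1 of them at an unadjusted p under 0.05 and 0 passing. That 1 was Otc, ornithine transcarbamylase, at -0.73 ± 0.21 (SE). The other, dimmer Otc probes differed by -0.01 and -0.24. Of 50 oxidative phosphorylation genes 43 were below 0 with a median of -0.21, of 50 ribosomal protein genes 40 with a median of -0.12, and 2 and 1 of them, respectively, had an unadjusted p under 0.05. The complex I genes Ndufa8 and Ndufs3 differed by -0.42 ± 0.16 and -0.31 ± 0.11 (SE), and Rpl30, of the large ribosomal subunit, by -0.33 ± 0.15 (SE). The glucose and insulin list had 16 of 23 members below 0 and a median of -0.16. Its lowest member was Slc2a2, the hepatocyte glucose transporter GLUT2, which had levels of 3.26, 3.52 and 3.86 in HFD (lowest, median, highest) and 1.76, 2.75 and 3.54 in the supplemented livers. All 17 lay below the HFD mean and 14 below the lowest HFD liver, with a difference of -0.84 ± 0.23 (SE; limma, adjusted p = 0.997).

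Markers of the liver cell types described here lay mostly to 1 side of 0, and none passed. Of the other cell type lists, some were divided and some also lay mostly to 1 side. Above 0 were 2 of 5 B cell, 2 of 6 neutrophil, 2 of 5 erythrocyte and 3 of 5 pancreas acinar markers. Also above 0 were 7 of 8 stellate, 6 of 8 macrophage, 5 of 7 adipocyte and 1 of 6 T and NK markers. All 6 muscle markers were above 0 (median 0.20), so a lean to 1 side was not particular to liver cell types. In bulk tissue, fewer cells of a type and less RNA per cell cannot be told apart. Of the 7 tested hepatocyte markers 6 were below 0 (median -0.30), with Ttr, the thyroxine carrier, lowest at -0.62 ± 0.28 (SE). All 11 sinusoidal endothelial markers were above 0 (median 0.42), with 3 at an unadjusted p under 0.05 and 0 passing: Stab2, a scavenger receptor, at 0.42 ± 0.19 (SE), the lectin gene Clec4g at 0.45 ± 0.22 (SE) and the iron-regulating ligand gene Bmp2 at 0.55 ± 0.20 (SE). Of 8 Kupffer cell markers 6 were above 0 (median 0.40), with Clec4f, a Kupffer cell lectin, at 0.44 ± 0.23 (SE). The macrophage receptor gene Csf1r differed by 0.35 ± 0.18 (SE), and its other, dimmer probes by 0.01 and 0.17. The 8 bile duct markers were all above 0 with a median of 0.22, and 0 had an unadjusted p under 0.05.

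The summed level of a marker list, in multiples of the 75th percentile, overlapped between HFD and every supplemented group. The 11 endothelial markers summed to between 27.2 and 73.7 in HFD, 55.6 and 85.9 in HQ, 62.4 and 97.4 in HR, and 49.98 and 82.84 in HQR. The 8 Kupffer markers summed to 17.8 to 33.2 in HFD, and to 24.03 to 51.07, 24.1 to 47.5 and 25.4 to 41.9 in HQ, HR and HQR. Hepatocyte markers summed to 544 to 1196 in HFD and to 544 to 1069, 563 to 882 and 575 to 954 in HQ, HR and HQR. Each of these markers was well above background on at least 1 array of each group, except 1 Kupffer marker in HQ. The part of these markers in the differences of the metabolic lists was not tested.

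One HFD array, HFD 3, stood apart in these lists. Its median endothelial marker was at -0.97 relative to the HFD mean of each gene, where the other HFD arrays lay between -0.003 and 0.51. For Kupffer cell markers it was at -0.84, with the others between -0.05 and 0.47. Without HFD 3, the medians of the endothelial, Kupffer cell and hepatocyte lists were 0.24, 0.20 and -0.19, against 47.2% of all genes above 0, and 0 of their members had an unadjusted p under 0.05. All 11 endothelial and 8 bile duct markers remained above 0. Bmp2, Clec4g and Stab2 then differed by 0.32, 0.24 and 0.24. Without that array the medians of the CAR and PXR, female-biased and urea cycle lists were -0.20, -0.17 and -0.14, with 20 of 22, 13 of 20 and 19 of 20 members below 0. For oxidative phosphorylation 37 of 50 members were below 0 (median -0.09), for ribosomal proteins 28 of 50 (median -0.01), for NRF2 targets 21 of 36 (median -0.04), for the conjugation list 12 of 22 (median -0.02) and for the lipid droplet list 13 of 22 (median -0.01). Cidec and Cd36 differed by -0.30 and -0.32.

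**Figure D5:**
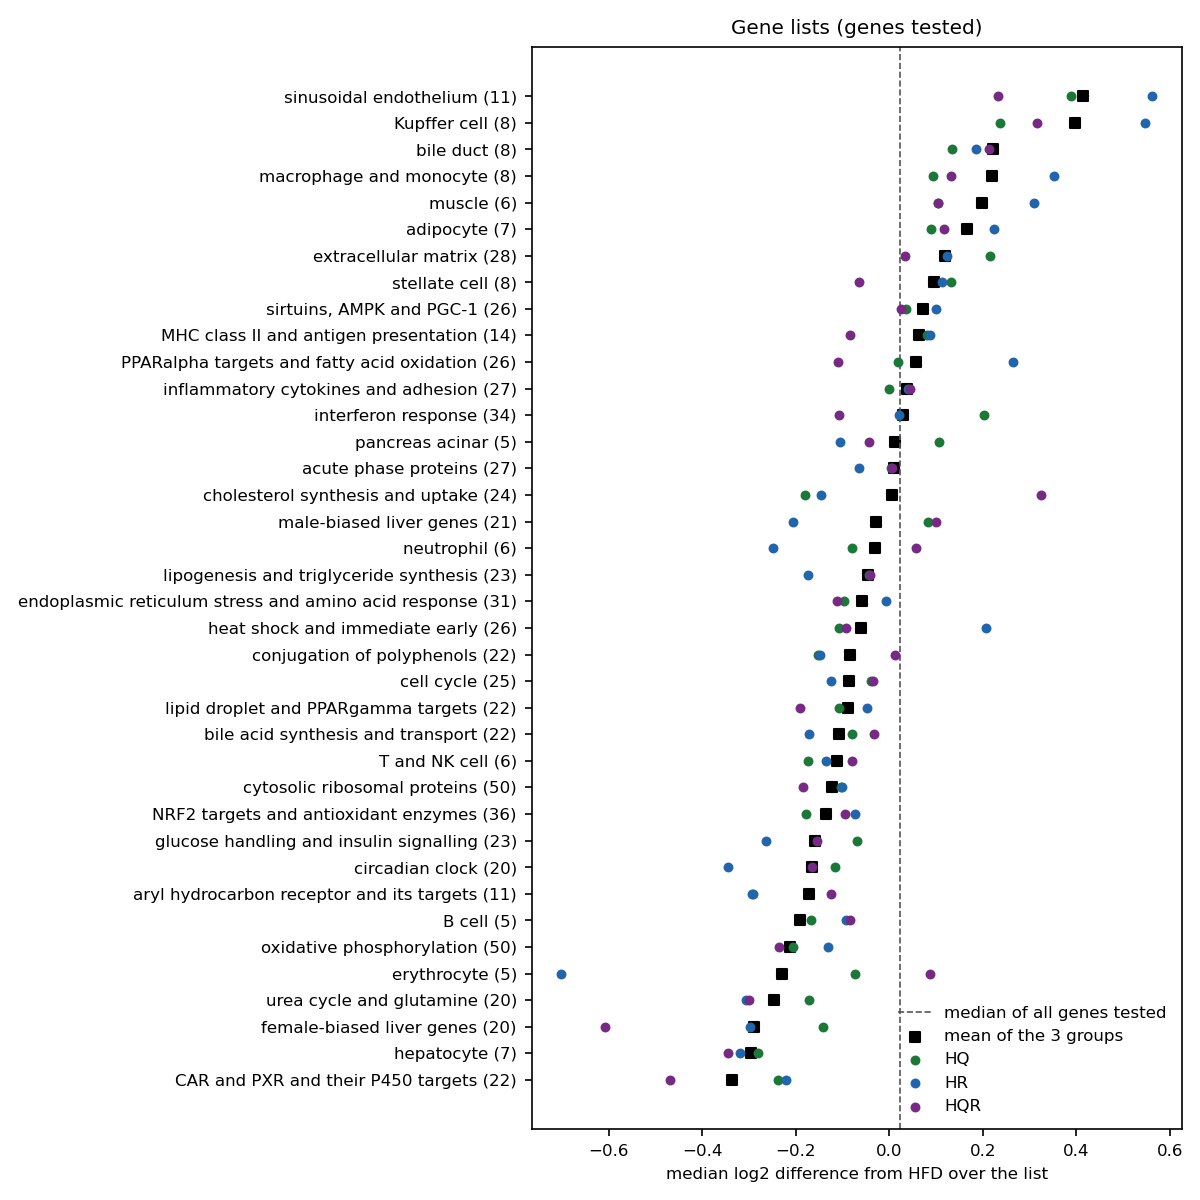
Median difference from HFD of each gene list (horizontal axis, log2 scale) for the supplemented mean and for HQ, HR and HQR, which share the 6 HFD arrays. Endothelial and Kupffer cell markers lie highest, with medians of 0.42 and 0.40, and the CAR and PXR, hepatocyte and female-biased lists lowest, with -0.34, -0.30 and -0.29.

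Immune, matrix and stress lists held no member that passed. The interferon list had 18 members above 0 and 16 below, and 3 above 0 had an unadjusted p under 0.05, among them the transcription factor gene Stat2 at 0.36 ± 0.16 (SE) and Oas2, which makes the activator of RNase L, at 0.52 ± 0.23 (SE). Its median of 0.03 changed sign in 14 of 45 alternatives. Inflammatory genes had 15 above 0 and 12 below, with the chemokine gene Cxcl10 at -0.79 ± 0.29 (SE). Extracellular matrix genes had 24 of 28 above 0, a median of 0.12 and 0 at an unadjusted p under 0.05. The list of endoplasmic reticulum stress and amino acid response had 12 above 0 and 19 below, with Asns, asparagine synthetase, highest at 0.82 ± 0.41 (SE).

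Of the circadian clock list 13 of 20 members were below 0, with a median of -0.17, and 2 had an unadjusted p under 0.05: Ciart, a repressor of the clock, at -1.57 ± 0.57 (SE) and -0.57 under normexp, and Bhlhe40, another clock repressor, at -0.74 ± 0.28 (SE). With slide as a block 8 members were below 0 at an unadjusted p under 0.05, against 4.01% of all genes, and Bhlhe40 differed by -1.09 (limma, adjusted p = 0.0764). In that fit the CAR and PXR and the conjugation lists had 6 such members each, and the female-biased, urea cycle, NRF2, glucose and cell cycle lists 5 each. Above 0, against 3.31% of all genes, the male-biased list had 5, with 15 of its 21 members above 0 and a median of 0.10. The time of day at which the livers were taken is not given in the sources used here. The secreted peptide genes Enho and Tff3 differed by 0.17 ± 0.19 and 0.24 ± 0.24 (SE).

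The supplemented groups were also compared with each other, to ask whether their mean hid unlike responses. The F test over HQ, HR and HQR, which uses the HFD arrays only for the spread, called 0 genes (0%). The smallest adjusted p was 0.959 in limma, and 311 genes had an unadjusted p under 0.05. HQ against HR, which are 2 compounds at the same dose of 0.4%, gave 0 genes (0%) with a smallest adjusted p of 0.9999 in limma, and 282 genes at an unadjusted p under 0.05. This was the 1 pair of single compounds compared. In HQR each compound was at 0.2%, so its values are set beside the others without a comparison of dose.

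For Hao2, HQ was 0.47 above HR, with a 95% interval of the difference from -0.33 to 1.27. For Cyp2b13 HQ was 1.14 above HR (interval -0.13 to 2.41), and for Cyp2b9 1.39 above it (interval -0.01 to 2.80). For Adamts15 the difference was -0.04 (interval -0.68 to 0.59) and for Aatk 0.37 (interval -0.12 to 0.85). These intervals are not adjusted for the number of genes, and each holds 0.

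The genes of smallest p in the F test were Grin3b, Ntrk2 and Lactb2, all with an adjusted p of 0.959 in limma. Grin3b, a subunit of NMDA receptors, lay 0.11 above HFD in HQ and was at -1.09 in HR and -1.33 in HQR. Its 5 HQ livers ran from -0.58 to -0.08, its HR livers from -1.75 to -1.21 and its HQR livers from -2.70 to -0.97, while HFD livers ran from -1.10 to 0.32 and overlapped HQ and HQR but not HR. Ntrk2, the receptor of brain-derived neurotrophic factor, was not well above background on any HR or HQR array. With dim arrays set as for Hao2, its HFD mean was 4.89-fold above HR and 6.79-fold above HQR. HFD 3, at -0.92, raised that Ntrk2 mean, and the other HFD livers lay between -4.35 and -3.26. Under normexp the difference of the Ntrk2 supplemented mean from HFD was -0.12. Its HQ livers spread from -6.02 to 0.04, and 3 of 5 were well above background. Lactb2, a mitochondrial endoribonuclease gene, differed from HFD by -0.43 (HQ), -0.75 (HR) and 0.11 (HQR).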

How the data were processed

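Liver RNA of 28 mice was hybridised to 1-colour (Cy3) whole genome arrays. Per the file headers, spot intensity was extracted with Agilent Feature Extraction 10.5.1.1, corrected for background and spatial trend, with surrogate values below the noise. Coordinates are those of mm9. The deposited value table holds scores of mean 0 and unit spread per array. Their scale and centring are unstated, and they served as an alternative after multiplication by 3.25.

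Processed intensities were averaged over spots of a probe as log2 values, without outlier spots, and each array was centred on its 75th percentile over non-control probes. Of 41174 probes, 32095 were well above background on at least 5 arrays. Names came from RefSeq accessions (25097 probes), symbols (6333), synonyms (1640) or the array (8104). The probe of highest mean stood for a gene, which left 21862 genes. Promoters are RefSeq's (GRCm38.p6).

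All 28 arrays were fitted with limma 3.58.1 in R 4.3.3 as 5 group means, and p-values were adjusted by Benjamini-Hochberg. The contrast was the mean of HQ, HR and HQR minus HFD. Array measures were compared in Python 3.11.15 over all 100947 splits. Scripts were tested on simulated data. Slide and scan day come from the file headers. Named genes were those passing, filled up to 10 a direction by smallest p; likewise with slide as a block; up to 3 a list; 3 of the F test; and a fixed set. This gave 151 genes, of which 71 are described. Members and lists were chosen with earlier results of these data known. Alternatives changed scaling, background, filter, probe choice, weights, blocks and arrays.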

Additional observations from a re-analysis of the deposited data

Results flagged for a closer look

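Of 292 groups of arrays examined (71 genes and 2 array measures in 4 diet groups), 16 (5.48%) held 1 array far from the rest of its group by Dixon's criterion, where chance gives about 1 in 20. Array HQR 4 stood apart most often, in 4 genes. It was high for Hao2, at -3.50 (others -5.85 to -5.44), and low for Hunk, at -1.51 (others -0.77 to -0.43), for Sirt1, at 1.97 (others 2.84 to 3.22), and for Ppara, at 5.38 (others 6.01 to 6.38).

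Array HR 4 was low in 3 genes. Its level was -3.58 (others -2.74 to -2.37) for Mpped2, -6.75 (others -4.93 to -3.93) for Cyp2b10 and -5.39 (others -3.43 to -2.30) for Ciart. The other HR arrays that stood apart were HR 1 for Hmox1 at 2.39 (others 0.22 to 1.02), HR 2 for Bhlhe40 at -0.73 (others 0.13 to 0.64), HR 3 for Dgat2 at 7.10 (others 6.63 to 6.80), HR 5 for Cyp51 at -2.64 (others -1.55 to -1.29) and HR 6 for Bmp2 at -1.26 (others -0.77 to -0.50).

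In the remaining groups HFD 3 was high for Ntrk2 at -0.92 (others -4.35 to -3.26), HQ 1 was high for Cyp1a1 at -1.11 (others -3.96 to -3.50), HQ 2 was low for Rpl30 at 2.96 (others 3.92 to 4.12) and HQR 3 was high for Fgf21 at 1.46 (others -2.78 to -1.41). At 0 of the named genes did every array of 1 supplemented group lie on the opposite side of HFD from every array of another.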

How the results depend on the processing

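The call of Hao2 was kept in 42 of 44 alternatives that tested it, leaving out each array included. It was lost under normexp (-0.14; limma, adjusted p = 0.763) and normexp with slide as a block (-0.52; adjusted p = 0.955), and the filter on all arrays removed its probe. Against 1 gene, 3 passed under quantile normalization, scaling to the array median, the deposited table, equal weight per array, intensity trend, and without slide 8. There were 2 with a probe above background on all arrays, 4 under normexp, 4 with the mean of probes and 4 with array weights, 7 under normexp with slide as a block, and 9 without HQ. With slide as a random block, and under quantile normalization with a slide block, 10 passed (1 rose, 9 fell). Leaving out 1 array gave 1 to 4: 4 without HR 3, 3 without HFD 5, HQ 3, HR 4 or HR 6, and 2 without HFD 1, HQ 1, HQ 4, HQR 2 or HQR 4. The replicate block gave 1, and same-numbered arrays did not pair: correlations of deviations between HFD and HQ ran from -0.27 to 0.61. Normexp moved the median of all genes to 0.17, and it turned Cyp2b10 to 3e-04 and Cyp1a1 to 0.10. The F test and HQ against HR called 0 genes in every alternative that tested them. Over 71 genes, 3109 of 3185 values stayed on their side of the threshold, and 72 passed newly, in 13 genes. Normexp with slide as a block, each probe alone (1 gene), and only slides with HFD arrays (1 gene) were chosen after seeing the data. List counts without HFD 3 were also added then. Signals near background limit the folds of Hao2, Cyp2b10, Ntrk2, Slc35f1 and Moxd1. Among larger differences, normexp also brought Slc35f1 from 2.92 to 1.21, Ntrk2 from -1.79 to -0.12, Moxd1 from 2.01 to 0.86 (0.69 with slide as a block), ENSMUST00000005477 from -1.95 to -0.84, Ciart from -1.57 to -0.57, Olfr701 from -1.39 to -0.35 and Mpped2 from -1.10 to -0.40.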
